A study of Mus musculus with 23 samples.

Results

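Interferon-stimulated genes are the genes that cells switch on when they sense interferon or foreign nucleic acid. The 41 genes described here were taken by their symbols from the 27207 rows of the table of RNA molecule counts, and each of the 41 symbols had a row. They hold transcription factors of the pathway, sensors of viral RNA, the ISG15 system, the IFIT family and other effectors against viruses. Of the 41 genes, 28 were counted often enough to be tested, among 11144 tested genes, and 13 were not.

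The study grew tumor cells of mice with pancreatic ductal adenocarcinoma (PDAC) as branching organoids and sequenced the 3' ends of their poly(A) RNA in bulk, with unique molecular identifiers (UMIs). KC cells came from a mouse with a Ptf1a Cre/+ driver and KPC cells from a mouse with a Pdx1 Cre/+ driver. Both drivers express Cre in the pancreas, and the mice of the study were kept on a mixed C57Bl/6;129S6/SvEv background. The 23 libraries fall into 6 groups. Batch 1 held 4 groups of the KC line. These were 6 libraries of 2D culture, 3 of organoids at day 7 and 5 at day 13 in floating gels of rat tail collagen I, and 3 of organoids at day 13 in growth factor-reduced Matrigel. Batch 2 held 3 libraries of each genotype, as organoids at day 13 in the same collagen, and all cells were fed DMEM with fetal bovine serum. The age of the mice is not given in the sources used here. Each genotype is a single line from a single mouse, so that genotype and line cannot be told apart, and the replicates are libraries of that line. The study calls the replicates of the KC organoids of batch 1 separate experiments, while for the other groups the labels only number them. In those other groups the spread behind a p-value may be technical. The fit shares its estimate of the spread over all groups, so that this limit reaches every comparison. The labels name no interferon treatment in any group. Cells in 2D were lysed directly, while organoids were freed with collagenase first, so that culture and lysis cannot be told apart.

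Type I interferons bind a receptor of the chains Ifnar1 and Ifnar2, and the kinases Jak1 and Tyk2 then activate STAT proteins, among them Stat2, which join Irf9 to form the factor ISGF3. ISGF3 and related factors bind a promoter element, the interferon-stimulated response element (ISRE), that is built from repeats of GAAA. Type II interferon acts on another element, the gamma-activated site (GAS). Tumor cells often carry a low level of these RNAs without any added interferon.

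Promoters are shown so that the shared element can be seen beside its spacing. Those shown belong to genes whose levels the comparisons turn on, and were taken only where the ISRE was matched. They come from the RefSeq promoter table of build GRCm38.p6, which gives 250 bases before to 50 bases after each gene's start and held 32 of the 41 genes. Dhx58, Zbp1, Usp18, Parp9, Parp14, Mx1, Mx2, Rtp4 and Ifi27 had no entry. The letters searched for the ISRE core were GAAANNGAAA on both strands, and those for the GAS were TTCNNNGAA, which reads the same on both strands. Capitals mark ISRE cores, overlapping cores run together, and every sequence is written 5′ to 3′ on the strand of its gene.
Ifit1: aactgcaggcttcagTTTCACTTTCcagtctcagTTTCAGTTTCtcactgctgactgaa
Ifit3: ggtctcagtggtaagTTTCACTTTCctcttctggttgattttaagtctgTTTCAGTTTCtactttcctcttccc
Isg15: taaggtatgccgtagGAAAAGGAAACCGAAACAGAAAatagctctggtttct
Ddx60: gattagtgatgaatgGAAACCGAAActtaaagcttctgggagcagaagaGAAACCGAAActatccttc
Stat2: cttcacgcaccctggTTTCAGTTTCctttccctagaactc
Gbp7: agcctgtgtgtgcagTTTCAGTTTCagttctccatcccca
Ifih1: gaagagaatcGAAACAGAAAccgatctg
Eif2ak2: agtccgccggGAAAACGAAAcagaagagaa
The windows lie at chr19:34640770-34640828 (plus strand), chr19:34583358-34583431 (plus), chr4:156200860-156200911 (minus), chr8:61928019-61928086 (plus), chr10:128270261-128270300 (plus), chr3:142530268-142530307 (plus), chr2:62646206-62646233 (minus) and chr17:78882535-78882564 (minus). Ifit1, Ifit3 and Ddx60 each hold 2 separate cores, and Isg15 holds 3 that overlap. The Ifih1 and Eif2ak2 cores lie just after the annotated start, and those of the other 6 genes lie before it. An ISRE core was found in 15 of the 32 promoters (46.9%), against 3.99% of 27025 genes with a promoter of the same length, and a GAS in 8 of 32 (25%), against 9.55%. Among the genes with no core within the promoter windows were Samd9l, Trim25, Oasl1, Irf1, Irf7, Irf9 and Dtx3l, which says only that those letters are absent there. These matches describe the sequences and were not linked to the levels by a test.

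Total counts ran from 1221451 to 2471058 UMIs per library, with a median of 1845921. A level is given in CPM, the count as a share of the library's total after scaling with edgeR's TMM factors. Since only 3' ends were counted, levels are compared between groups for a gene and not between genes. The 2D libraries fell into 2 sets. Replicates 1 to 3 held 4.99% to 5.76% mitochondrial counts and had TMM factors of 0.738 to 0.772, and replicates 4 to 6 held 2.51% to 3.01% and had factors of 1.03 to 1.06. Correlations of log2 CPM ran from 0.963 to 0.983 within these sets and from 0.917 to 0.934 between them, so that 2D results are also given without each set, an alternative chosen after the data had been seen. All 6 epithelial markers were counted in every library. Of the 6 leukocyte markers, Cd68 was counted in every library (6 to 83 counts), while Ptprc reached at most 3 counts and Csf1r, Lyz2, Cd79a and Itgam at most 1. Of the 8 fibroblast markers, Col1a2 (31 to 125 counts), Col3a1 (10 to 77), Dcn (6 to 31) and Pdgfrb (1 to 10) were counted in every library, and Thy1 was at 0 in all 23. Of the 4 endothelial markers none passed 3 counts in a library, and Kdr was at 0 in all 23. In bulk samples, fewer cells that express a gene and less RNA of it per cell cannot be told apart.

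The mean z score of the 28 tested genes (each gene's log2 CPM scaled over the 23 libraries) was lowest in day 7 collagen organoids, at -0.865 ± 0.203 (SD, n = 3). It was 0.211 ± 0.169 (SD, n = 5) in day 13 collagen organoids of batch 1 and 0.512 ± 0.0436 (SD, n = 3) in Matrigel. The 3 day 7 libraries lay between -1.08 and -0.673, below every other library. In batch 2 the score was 0.141 ± 0.0519 (SD, n = 3) in KC and -0.324 ± 0.206 (SD, n = 3) in KPC organoids, without overlap, and in 2D cells it was 0.0919 ± 0.193 (SD, n = 6). The scores are a description, without a test.

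**Figure D1:**
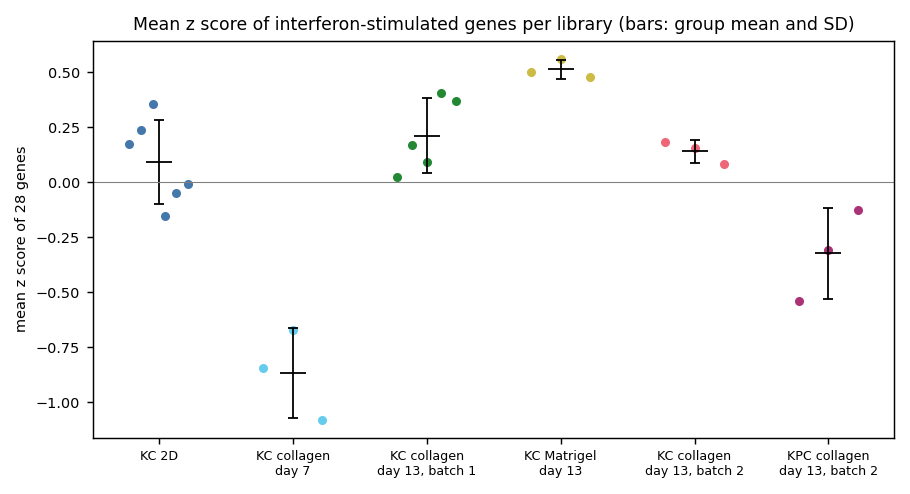
Mean z score of the 28 tested interferon-stimulated genes (vertical axis, no unit) in each of the 23 libraries, by group, with black bars for the group mean and SD. The 3 day 7 collagen libraries lie between -1.08 and -0.673, below all other libraries, and the Matrigel libraries lie between 0.476 and 0.561.

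Single genes had unlike patterns. Of the 28 genes, 16 had their lowest group mean at day 7 and 0 had their highest there. The highest mean was in 2D cells for 9 genes, in Matrigel for 8, in KC organoids of batch 2 for 7, in day 13 collagen organoids of batch 1 for 2 and in KPC organoids for 2. How often all tested genes have their lowest or highest mean in each group was not computed. These counts therefore only describe the list. Isg15, Usp18, Ifit1, Ifit3, Bst2, Xaf1, Rtp4, Ifi27 and Ifi35 were the 9 that were highest in 2D cells. Ifih1, Ddx60, Trim25, Oasl1, Eif2ak2, Adar and Samd9l were the 7 that were highest in KC organoids of batch 2, and for 4 of these 7 (Trim25, Oasl1, Eif2ak2 and Adar) the lowest mean was in 2D cells.

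**Figure D2:**
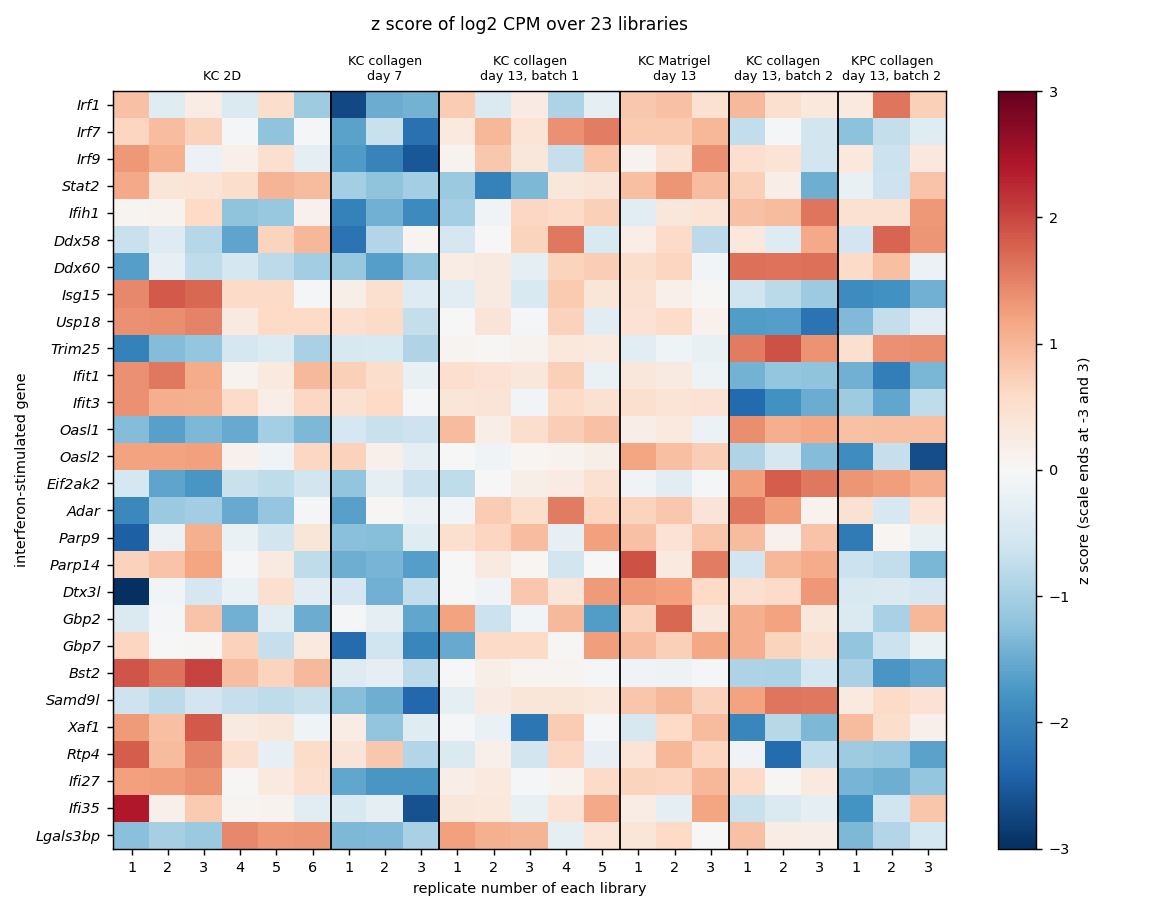
Heat map of the z score of log2 CPM (colour, red above and blue below the mean of the gene) for 28 genes (rows) in 23 libraries (columns, grouped and numbered by replicate). The day 7 columns are blue for most genes, while Usp18, Ifit1 and Ifit3 are blue in the batch 2 columns. Samd9l, Trim25 and Eif2ak2 are red there, and so is Ddx60 except in KPC replicate 3.

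Day 7 in collagen, when branches extend, was compared with day 13, when lumens form, within batch 1. None of the 28 genes was higher at day 7 and 18 were lower, where 28.1% of all tested genes were called higher and 27.1% lower at an adjusted p under 0.1. The median log2 fold change of the 28 was -0.64, against 0.01 over all tested genes. Among the 18 were factors that carry the interferon signal (Irf1, Irf7 and Irf9), RNA sensors (Ifih1 and Ddx60) and effectors such as Samd9l. The others were Dtx3l, Parp9, Parp14, Gbp7, Trim25, Oasl1, Eif2ak2, Adar, Bst2, Ifi27, Ifi35 and Lgals3bp. The Bst2 call (log2 fold change -0.33 ± 0.16 (SE), adjusted p = 0.0950) was lost when any of the 8 libraries was left out, with adjusted p-values from 0.106 to 0.337. Those of Adar and Eif2ak2 were lost without day 7 replicate 1, and that of Adar without day 13 replicate 4 as well, with adjusted p-values from 0.139 to 0.226 for Adar and of 0.172 for Eif2ak2. The 7 genes closest to no change, with log2 fold changes from -0.28 to 0.28, were Xaf1, Isg15, Ifit1, Ifit3, Usp18, Oasl2 and Rtp4, and none of them was called. The summed leukocyte markers, mostly Cd68, ran from 3.41 to 5.88 CPM at day 7 and from 12.0 to 22.1 at day 13, and their part in the result was not tested.

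KPC organoids were compared with KC organoids within batch 2, at day 13 in collagen. Of the 28 genes 1 was higher in KPC, Xaf1, where 9.58% of all tested genes were called higher, and 6 were lower, Ddx60, Ifi27, Gbp7, Parp14, Samd9l and Dtx3l, where 10.4% were called lower. The median was -0.36, against 0.01 over all tested genes. With scaling by library size alone 2 were higher and 3 lower, while the median of all tested genes shifted by 0.12. Counts under this and the other alternatives, here and below, stand without the share of all tested genes called there. With the KC collagen libraries of both batches pooled, 8 at day 13, none was higher and 11 were lower. The pooled comparison mixes genotype with batch, since all KPC libraries are of batch 2. Without KC replicate 3, or without KPC replicate 1 or 2, 3 genes were called, and without KPC replicate 3 there were 4. The summed leukocyte markers, mostly Cd68, ran from 5.99 to 12.1 CPM in KPC and from 18.7 to 21.2 in KC organoids. Their part in the result was not tested.

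Matrigel was compared with collagen at day 13 within batch 1. Of the 28 genes 4 were higher in Matrigel, Stat2, Parp14, Oasl2 and Samd9l, where 6.62% of all tested genes were called higher, and Oasl1 was lower, where 6.29% were. The median was 0.09, against -0.01 over all tested genes. With library size alone 5 were higher and 0 lower, while the median of all tested genes shifted by 0.06. Without Matrigel replicate 3 there were 2 calls, both higher in Matrigel, and without Matrigel replicate 1 or 2 there were 3. The summed leukocyte markers, mostly Cd68, were higher in Matrigel, at 30.7 to 37.1 CPM against 12.0 to 22.1 in collagen. Their part in the result was not tested.

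KC organoids of the same line at day 13 in collagen were part of both batches, as separate samples. Of the 28 genes 6 were higher in batch 2, Ddx60, Samd9l, Eif2ak2, Trim25, Ifih1 and Oasl1, where 19.3% of all tested genes were called higher, and 6 were lower, Ifit3, Usp18, Ifit1, Isg15, Irf7 and Bst2, where 18.1% were. The median was 0.05, against -0.05 over all tested genes. With library size alone 4 were higher and 8 lower, while the median of all tested genes shifted by -0.14. What differed between the batches is not stated, and both batches share line, matrix and day. The share of mitochondrial counts was 5.59% to 6.18% in KC libraries of batch 2 and 3.01% to 4.83% in batch 1, and its part in the result was not tested.

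2D cells were set beside each kind of batch 1 organoid. Against day 7 organoids 17 genes were higher in 2D cells and 1 lower, where 26.4% and 24.8% of all tested genes were called, with a median of 0.77. Against day 13 collagen organoids 8 were higher and 8 lower, where 26.3% and 23.3% were called, with a median of -0.06. Against Matrigel 3 were higher and 9 lower, where 21.9% and 20.1% were called, with a median of -0.32. The summed leukocyte markers, mostly Cd68, ran from 4.57 to 18.3 CPM in 2D cells and from 30.7 to 37.1 in Matrigel, without overlap. Their part in the result was not tested. The medians over all tested genes in these 3 comparisons lay between 0.01 and 0.02. Library size alone shifted the median of all tested genes by -0.20 against day 13 collagen and by -0.26 against Matrigel. The counts higher and lower were then 4 and 10 against day 13 collagen and 2 and 13 against Matrigel. Without 2D replicates 1 to 3 they were 12 and 1 against day 7, 3 and 8 against day 13 collagen and 2 and 11 against Matrigel, and without replicates 4 to 6 they were 18 and 2, 10 and 8, and 6 and 8. The comparisons share groups, and each one's own values are given for that reason.

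**Figure D3:**
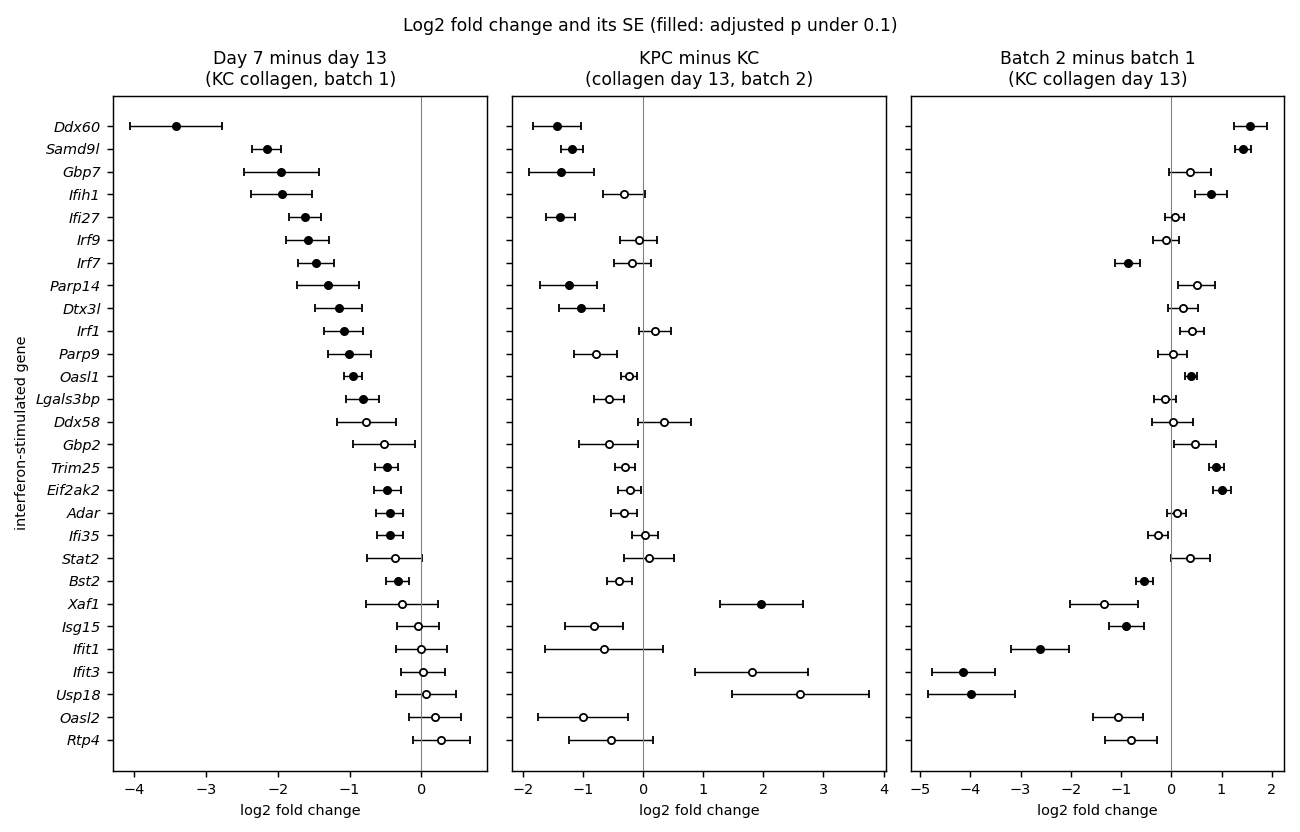
Log2 fold change (horizontal axis) with its SE for the 28 tested genes (rows, ordered by the first panel) in 3 comparisons, with filled points for an adjusted p under 0.1. All filled points of the day 7 panel lie left of 0, and those of the batch panel lie on both sides, with Ifit3, Usp18 and Ifit1 farthest to the left.

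The 4 transcription factors are Irf1, a factor induced by both kinds of interferon, Irf7, which drives the genes of type I interferons, and the ISGF3 subunits Irf9 and Stat2. Irf9 at chr14:55603571-55610030 stood at 5.88, 5.04 and 3.84 CPM in the day 7 libraries and at 13.4, 18.2, 14.8, 9.40 and 18.4 in the day 13 collagen libraries of batch 1. Every day 7 library lay below every day 13 library (log2 fold change -1.58 ± 0.30 (SE), adjusted p = 8.88e-05). In 2D cells Irf9 ran from 11.2 to 22.6 with a median of 14.8, above every day 7 library as well (log2 fold change 1.64 ± 0.30 (SE), adjusted p = 1.03e-04).

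Irf7 was at 11.3, 17.05 and 8.53 CPM at day 7 and at 26.0, 35.0, 27.3, 40.8 and 43.6 at day 13, again without overlap (log2 fold change -1.47 ± 0.25 (SE), adjusted p = 2.18e-05). In batch 2 KC organoids of day 13 gave 16.6, 22.3 and 18.0, below each of the 5 libraries of batch 1 (log2 fold change -0.86 ± 0.25 (SE), adjusted p = 0.0100), and KPC organoids gave 13.4, 16.8 and 19.5, which overlapped KC (log2 fold change -0.18 ± 0.30 (SE), adjusted p = 0.770). Irf1 stood at 6.37, 11.2 and 11.5 CPM at day 7 and between 14.3 and 29.7 at day 13 (log2 fold change -1.08 ± 0.27 (SE), adjusted p = 0.00178).

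Stat2 differed by matrix. It was at 8.66, 10.5 and 8.74 CPM in Matrigel and at 3.25, 1.92, 2.87, 6.72 and 6.83 in collagen of batch 1, where the lowest Matrigel library lay above the highest collagen library (log2 fold change 1.10 ± 0.32 (SE), adjusted p = 0.0290). The call was lost without Matrigel replicate 2 (adjusted p = 0.133). The 5 collagen libraries themselves split, with replicates 1 to 3 at or under 3.25 and replicates 4 and 5 at 6.72 and 6.83. In 2D cells Stat2 ran from 6.79 to 9.67 with a median of 8.07, higher than in day 13 collagen organoids (log2 fold change 0.91 ± 0.30 (SE), adjusted p = 0.0156) with an overlap at the upper end of collagen.

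Ifih1 encodes MDA5 and Ddx58 encodes RIG-I, helicases that bind viral RNA in the cytosol, and Ddx60 encodes a related helicase. Ifih1 was at 1.96, 3.10 and 2.13 CPM at day 7 and at 4.17, 7.67, 12.0, 11.6 and 12.6 at day 13 in batch 1 (log2 fold change -1.95 ± 0.42 (SE), adjusted p = 4.36e-04), so that all day 13 libraries were higher. It was at 13.9, 14.6 and 21.3 in KC organoids of batch 2, above every batch 1 library (log2 fold change 0.79 ± 0.32 (SE), adjusted p = 0.0608), and at 10.9, 10.8 and 17.9 in KPC organoids, which overlapped KC. The batch call was lost without batch 1 replicate 1 or 2 or batch 2 replicate 3, with adjusted p-values from 0.121 to 0.304. In 2D cells it ran from 3.65 to 11.8 with a median of 8.66, above day 7 without overlap (log2 fold change 1.48 ± 0.45 (SE), adjusted p = 0.00984). Ddx58 was called in none of the 7 comparisons, and its group means ran from 3.93 CPM at day 7 to 8.82 in KPC organoids.

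Ddx60 had its highest level in KC organoids of batch 2, at 11.3, 11.2 and 11.3 CPM, against 3.25, 3.36, 1.91, 4.93 and 5.25 in batch 1. The 3 libraries of batch 2 were nearly equal and lay above all 5 of batch 1 (log2 fold change 1.58 ± 0.34 (SE), adjusted p = 8.44e-04). Ddx60 passed the filter on low counts only with the help of this group, where it is highest. In every other group it held at most 11 counts in a library. Its place among the tested and called genes of each comparison depends on that. KPC organoids of batch 2 were at 4.47, 5.99 and 2.11, below each KC library of that batch (log2 fold change -1.43 ± 0.39 (SE), adjusted p = 0.0132). That call was lost against all 8 KC libraries, which mixes genotype with batch, where the log2 fold change was -0.58 (adjusted p = 0.435). At day 7 the 3 libraries held 2 Ddx60 counts in all and the 5 day 13 libraries of batch 1 held 39, a ratio of 12.98 from day 13 to day 7 (95% counting interval 3.36 to 110.9, adjusted p of the edgeR fit = 7.87e-05). The 6 2D libraries held 9 counts in all, with a ratio of 3.70 from day 13 collagen to 2D (95% interval 1.77 to 8.70, adjusted p = 0.00200). Intervals of this kind cover counting error only.

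Isg15 encodes a small protein that is joined to other proteins, Usp18 encodes the enzyme that removes it and that also blocks the type I receptor, Herc6 a ligase for it and Trim25 a ligase that acts on RIG-I. Isg15 ran from 16.5 to 51.4 with a median of 32.6 CPM in 2D cells and was at 13.9, 20.1, 12.9, 27.8 and 21.5 in day 13 collagen organoids of batch 1, with an overlap (log2 fold change 0.74 ± 0.24 (SE), adjusted p = 0.0160, and adjusted p = 0.616 without 2D replicates 1 to 3). It was at 22.8, 18.7 and 17.5 in Matrigel (log2 fold change 0.70 ± 0.28 (SE), adjusted p = 0.0556 for 2D against Matrigel). That second call was lost without 2D replicate 1, 2 or 3 or Matrigel replicate 2 or 3, at adjusted p-values from 0.113 to 0.171, and without all of 2D replicates 1 to 3 the log2 fold change was 0.11 (adjusted p = 0.766).

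In batch 2 Isg15 stood at 11.9, 10.5 and 8.66 CPM in KC organoids, below every batch 1 library (log2 fold change -0.89 ± 0.35 (SE), adjusted p = 0.0585). Leaving out batch 1 replicate 2, 4 or 5 or any batch 2 library removed that call, with adjusted p-values from 0.101 to 0.207. KPC organoids were at 5.11, 5.39 and 6.86, below KC without overlap, but the difference did not pass the test (adjusted p = 0.294).

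Usp18 was lower in batch 2 as well. The 3 KC libraries of batch 2 held 1, 1 and 0 counts, against 14, 20, 13, 29 and 9 in batch 1, a ratio of 18.1 from batch 1 to batch 2 (95% counting interval 4.85 to 151, adjusted p = 0.00109). KPC libraries held 2, 5 and 9 counts, all above KC of the same batch, with a ratio of 6.93 (95% counting interval 1.63 to 62.1) that did not pass the test (adjusted p = 0.133). In 2D cells Usp18 ran from 8.68 to 27.6 with a median of 18.4 CPM, and it was higher than in day 13 collagen organoids, at 6.49, 9.59, 6.22, 13.0 and 4.73 (log2 fold change 1.05 ± 0.34 (SE), adjusted p = 0.0147). The groups overlapped. Its 3 highest libraries were 2D replicates 1 to 3, and without them the log2 fold change was 0.37 (adjusted p = 0.411).

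Trim25 ran the other way. It was at 86.1, 100.4 and 79.3 CPM in KC organoids of batch 2 and at 45.9, 45.1, 46.4, 50.6 and 50.4 in batch 1, with a wide gap between them (log2 fold change 0.89 ± 0.15 (SE), adjusted p = 5.72e-05). In 2D cells it ran from 18.3 to 37.0 with a median of 27.7, below all 5 day 13 libraries (log2 fold change -0.68 ± 0.14 (SE), adjusted p = 3.55e-04), and at day 7 it was at 35.8, 36.4 and 29.8, also below them (log2 fold change -0.49 ± 0.16 (SE), adjusted p = 0.0133).

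The Ifit genes lie together on chromosome 19 and encode proteins that bind viral RNA and block its translation, among them Ifit1 at chr19:34640871-34650009 and Ifit3 at chr19:34583531-34588731. Ifit1 was at 17.2, 15.8, 14.4, 21.0 and 8.41 CPM in day 13 collagen organoids of batch 1 and at 1.99, 2.79 and 2.67 in batch 2. The groups did not overlap (log2 fold change -2.61 ± 0.58 (SE), adjusted p = 0.00121), and the KPC libraries, at 1.92, 0.599 and 2.11, stood as low as KC of their batch (adjusted p = 0.741). Ifit1 at day 7, at 21.1, 17.4 and 8.10, overlapped day 13 of its batch (adjusted p = 0.995). In 2D cells it ran from 11.4 to 47.5 with a median of 28.5, against 14.6, 13.5 and 8.74 in Matrigel (log2 fold change 1.05 ± 0.36 (SE), adjusted p = 0.0268), with an overlap. That call was lost without Matrigel replicate 3 (adjusted p = 0.104) and without 2D replicates 1 to 3 (adjusted p = 0.389).

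Ifit3 fell from 28, 28, 17, 36 and 27 counts in the batch 1 libraries to 0, 1 and 2 in KC organoids of batch 2. The ratio from batch 1 to batch 2 was 19.25 (95% counting interval 6.45 to 94.5, adjusted p = 1.79e-05), the largest of the 41 genes between the batches with at least 1 count in each. KPC libraries held 4, 2 and 7 counts (adjusted p = 0.223). At day 7 Ifit3 was at 14.2, 16.7 and 8.53 CPM, at day 13 of batch 1 at 13.0, 13.4, 8.14, 16.1 and 14.2, and in Matrigel at 14.6, 13.5 and 13.99, all overlapping. In the last 500 bases of its transcripts, 12.3% of the 63-base windows of Ifit3 also occur in another gene, mostly Ifit3b, so that a part of its reads could come from either. Ifit2 and Ifit3b were below the filter.

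**Figure D4:**
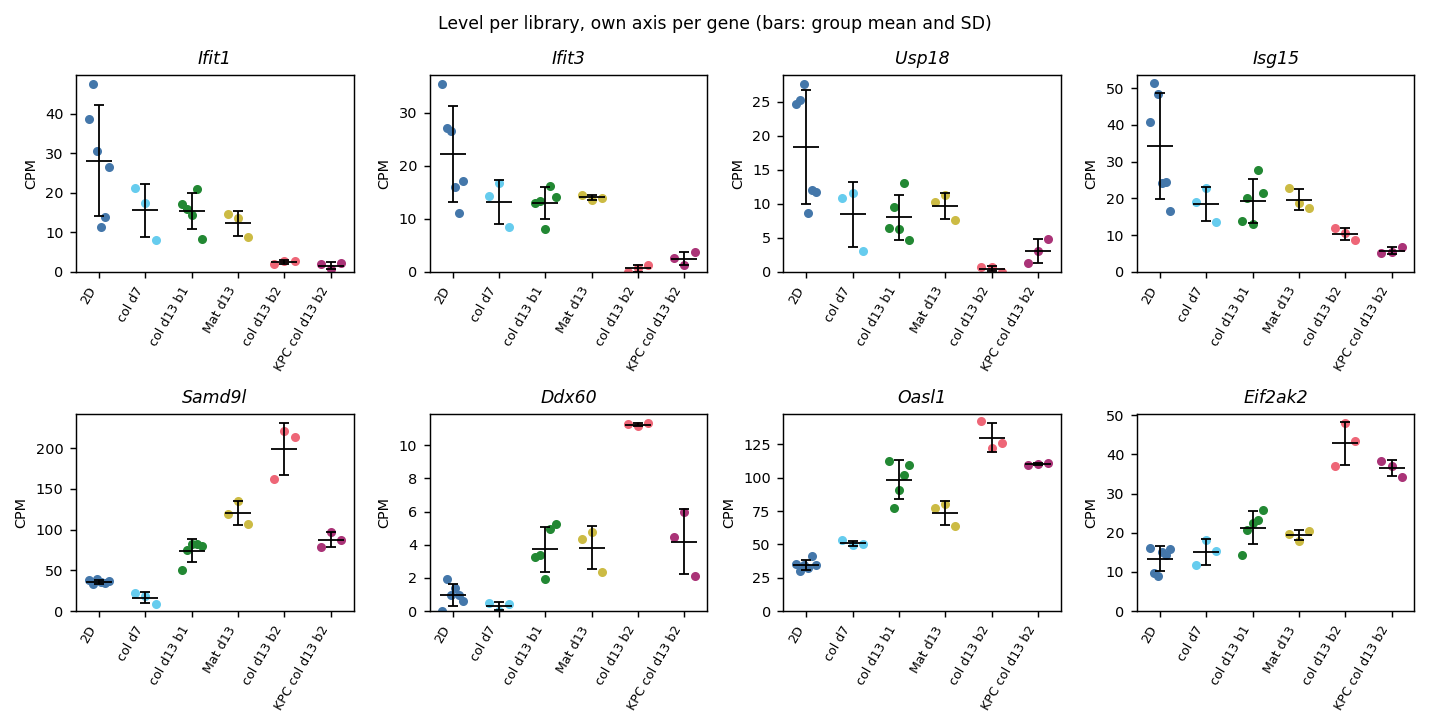
Level in CPM (vertical axis from 0, own scale for each gene) of 8 genes in each library, by group (col, collagen; Mat, Matrigel; d, day; b, batch), with black bars for the group mean and SD. In the upper row Ifit1, Ifit3, Usp18 and Isg15 are low in both batch 2 groups, and in the lower row Samd9l, Ddx60, Oasl1 and Eif2ak2 are highest in KC organoids of batch 2.

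Among the effectors that bind RNA with paired strands, Oasl1 and Oasl2 encode proteins related to oligoadenylate synthetases, Eif2ak2 encodes the kinase PKR that stops translation, and Adar encodes an enzyme that edits adenosine. Oasl1 at chr5:114923240-114937915 and Oasl2 at chr5:114896936-114912234 are neighbors on chromosome 5 and on the same strand. Oasl1 ran from 30.1 to 41.3 with a median of 34.6 CPM in 2D cells. It was at 53.0, 49.6 and 50.3 at day 7 and at 113, 77.2, 90.9, 102 and 109.8 at day 13 in batch 1, and these 3 groups did not overlap (log2 fold change -0.54 ± 0.13 (SE), adjusted p = 0.00155 for 2D against day 7, and log2 fold change -0.95 ± 0.13 (SE), adjusted p = 8.49e-07 for day 7 against day 13). In KC organoids of batch 2 it rose to 142, 122 and 126 (log2 fold change 0.40 ± 0.12 (SE), adjusted p = 0.0120), which was not called with library size alone (adjusted p = 0.206). KPC organoids were at 109, 111 and 111, below each KC library of the batch, which did not pass the test (adjusted p = 0.269). Matrigel organoids were at 77.1, 80.7 and 63.5, lower than collagen with an overlap (log2 fold change -0.41 ± 0.12 (SE), adjusted p = 0.0319). That call was lost with library size alone (adjusted p = 0.249) and without Matrigel replicate 3 (adjusted p = 0.192).

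Oasl2 showed another order. It was at 9.44, 7.85 and 6.99 CPM in Matrigel and at 4.17, 3.84, 4.31, 4.48 and 4.73 in collagen of batch 1, without overlap (log2 fold change 0.92 ± 0.34 (SE), adjusted p = 0.0957). The call did not hold when any of the 8 libraries was left out, with adjusted p-values from 0.123 to 0.349, nor with DESeq2's Wald test (adjusted p = 0.126). In batch 2 it was at 1.99, 2.79 and 1.33 in KC organoids, where Oasl1 was highest, and that difference from batch 1 did not pass (adjusted p = 0.113).

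Eif2ak2 was at 37.1, 48.1 and 43.3 CPM in KC organoids of batch 2 and at 14.4, 20.6, 22.5, 23.3 and 25.7 in batch 1, without overlap (log2 fold change 1.01 ± 0.17 (SE), adjusted p = 7.76e-05). KPC organoids were at 38.3, 37.1 and 34.3, close to KC of the batch (adjusted p = 0.481), and 2D cells ran from 8.87 to 16.1 with a median of 14.7. Adar ran from 8.59 to 14.1 with a median of 10.6 in 2D cells and stood at 13.9, 17.3, 16.3, 21.0 and 16.8 in day 13 collagen organoids of batch 1, with a small overlap (log2 fold change -0.65 ± 0.17 (SE), adjusted p = 0.00282).

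Parp9 and Parp14 encode ADP-ribosyltransferases, and Dtx3l encodes a ubiquitin ligase that pairs with Parp9. The 3 genes lie side by side on chromosome 16, where Dtx3l (chr16:35926511-35939151) and Parp9 (chr16:35938470-35972605) overlap at their starts on opposite strands. All 3 were lower at day 7 than at day 13, with log2 fold changes of -1.15 for Dtx3l, -1.01 for Parp9 and -1.30 for Parp14. Parp14 was at 9.84, 4.36 and 8.16 CPM in Matrigel and at 3.71, 4.32, 3.83, 2.69 and 3.68 in collagen of batch 1, where the groups came close without overlap (log2 fold change 1.02 ± 0.32 (SE), adjusted p = 0.0399). It lost its call without Matrigel replicate 1 (adjusted p = 0.332) or 3 (adjusted p = 0.132). In batch 2 Parp14 was at 2.65, 6.28 and 6.66 in KC and at 2.56, 2.39 and 1.58 in KPC organoids, where the lowest KC library was close to the highest KPC library (log2 fold change -1.24 ± 0.47 (SE), adjusted p = 0.0770). Leaving out KC replicate 2 or 3 or any KPC library removed that call, with adjusted p-values from 0.116 to 0.274. Dtx3l was at 11.9, 12.6 and 18.7 in KC and at 7.03, 7.18 and 6.86 in KPC organoids, which were nearly equal to each other (log2 fold change -1.03 ± 0.37 (SE), adjusted p = 0.0643). Its call was lost without KC replicate 3 or any KPC library, with adjusted p-values from 0.130 to 0.261. In Matrigel Dtx3l was at 18.5, 17.9 and 12.8, above 2D cells, which ran from 1.07 to 12.0 with a median of 7.94 (log2 fold change -1.05 ± 0.29 (SE), adjusted p = 0.00709).

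Guanylate-binding proteins are large GTPases that attack microbes within cells. Gbp7 was at 0.490, 3.10 and 0.853 CPM at day 7 and at 1.39, 7.19, 7.18, 4.93 and 11.03 at day 13 of batch 1, where 1 low day 13 library reached into the day 7 range (log2 fold change -1.95 ± 0.52 (SE), adjusted p = 0.00307). In 2D cells it ran from 2.88 to 7.76 with a median of 5.41 (log2 fold change 1.79 ± 0.54 (SE), adjusted p = 0.00896 against day 7). Without day 7 replicate 2 these log2 fold changes were -3.08 and 2.90, and both were still called. In batch 2 it was at 9.93, 7.67 and 6.66 in KC and at 1.92, 2.99 and 4.22 in KPC organoids, without overlap (log2 fold change -1.36 ± 0.54 (SE), adjusted p = 0.0923). This call was lost when any of the 6 libraries was left out, with adjusted p-values from 0.102 to 0.245. Gbp2 was at 5.51, 8.72 and 4.66 in Matrigel and ran from 1.77 to 5.92 with a median of 3.29 in 2D cells, which overlapped (log2 fold change -1.04 ± 0.41 (SE), adjusted p = 0.0546). Without 2D replicate 4 or 6 or Matrigel replicate 2 it was not called, with adjusted p-values from 0.101 to 0.284.

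Samd9l, which encodes an antiviral factor that slows growth and stops translation, had the lowest adjusted p of the 28 genes between day 7 and day 13. At chr6:3372257-3399572 on the minus strand, it was at 22.1, 19.0 and 8.95 CPM at day 7. At day 13 in batch 1 it was at 50.1, 75.3, 82.3, 82.9 and 80.4, so that the lowest day 13 library was above the highest day 7 library (log2 fold change -2.16 ± 0.21 (SE), adjusted p = 4.53e-09). Matrigel libraries were at 119, 136 and 107, above all 5 collagen libraries of their batch (log2 fold change 0.70 ± 0.17 (SE), adjusted p = 0.00627).

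KC organoids of batch 2 were higher again, at 162, 221 and 214 CPM (log2 fold change 1.42 ± 0.16 (SE), adjusted p = 4.23e-07 for batch 2 against batch 1). With all 8 KC collagen libraries in place of the 5 of batch 1, the log2 fold change from collagen to Matrigel was 0.01 (adjusted p = 0.991). That comparison mixes matrix with batch. KPC organoids were at 78.6, 97.0 and 87.1, below every KC library of batch 2 (log2 fold change -1.18 ± 0.19 (SE), adjusted p = 7.40e-05). Against all 8 KC libraries, which mixes genotype with batch, that difference was -0.45 (adjusted p = 0.360). In 2D cells Samd9l ran from 33.0 to 39.4 with a median of 36.3, between day 7 and day 13 and overlapping neither (log2 fold change -1.04 ± 0.16 (SE), adjusted p = 1.04e-05 against day 13). Group means were thus 16.7 ± 6.86 (SD, n = 3) at day 7, 36.1 ± 2.34 (SD, n = 6) in 2D, 74.2 ± 13.8 (SD, n = 5) at day 13 and 199 ± 32.1 (SD, n = 3) in KC organoids of batch 2.

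Bst2 encodes tetherin, which holds budding viruses at the cell surface. It ran from 70.1 to 126 with a median of 93.4 CPM in 2D cells, above the 52.9, 57.1, 54.6, 54.6 and 51.5 of day 13 collagen organoids (log2 fold change 0.81 ± 0.13 (SE), adjusted p = 3.16e-05) and the 50.4, 49.3 and 51.9 of Matrigel (log2 fold change 0.91 ± 0.16 (SE), adjusted p = 1.28e-04). No 2D library overlapped either group, and both differences held without either set of 2D replicates. KC organoids of batch 2 were at 35.1, 34.9 and 42.0, below batch 1 (log2 fold change -0.54 ± 0.17 (SE), adjusted p = 0.0215). Without batch 2 replicate 1 or 2 that was not called, with adjusted p-values from 0.114 to 0.122.

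Ifi27 encodes a small hydrophobic protein of mitochondria and the nuclear envelope, and its change with genotype held under each of the 14 alternatives run. It was at 78.1, 57.2 and 66.6 CPM in KC organoids of batch 2 and at 24.9, 23.9 and 28.5 in KPC organoids, with a wide gap (log2 fold change -1.38 ± 0.24 (SE), adjusted p = 2.28e-04). At day 7 it was at 22.6, 20.1 and 20.04, as low as in KPC organoids, and at day 13 in batch 1 at 63.1, 66.7, 54.6, 59.6 and 78.3 (log2 fold change -1.62 ± 0.22 (SE), adjusted p = 1.00e-06). In 2D cells it ran from 57.5 to 122 with a median of 94.3, far above day 7 (log2 fold change 2.09 ± 0.22 (SE), adjusted p = 4.31e-08). Both batches of KC organoids had like levels of Ifi27 (log2 fold change 0.07 ± 0.20 (SE), adjusted p = 0.835).

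Xaf1, which encodes a factor that promotes apoptosis, was the gene called higher in KPC organoids. The KPC libraries held 11, 9 and 8 counts and the KC libraries of batch 2 held 1, 3 and 2, without overlap, a ratio of 4.04 (95% counting interval 1.64 to 11.9, adjusted p = 0.0561). Batch 1 libraries of KC held 8, 7, 1, 14 and 7. Against all 8 KC libraries, which mixes genotype with batch, Xaf1 was not called (adjusted p = 0.189). Without KC replicate 1 or 3 or KPC replicate 1 or 2 it was not called either, with adjusted p-values from 0.103 to 0.192.

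Rtp4 encodes a chaperone of receptors that also restrains viruses. It ran from 4.80 to 18.3 with a median of 9.46 CPM in 2D cells, and was at 4.17, 6.23, 3.83, 8.51 and 4.73 in day 13 collagen organoids of batch 1, with an overlap (log2 fold change 0.82 ± 0.34 (SE), adjusted p = 0.0561). This call was lost without 2D replicate 1 or 3 or collagen replicate 1, 3 or 5, with adjusted p-values from 0.111 to 0.158, and without 2D replicates 1 to 3 the log2 fold change was 0.28 (adjusted p = 0.596). Lgals3bp, a secreted glycoprotein, was at 362, 363 and 402 at day 7 and between 494 and 766 at day 13 (log2 fold change -0.82 ± 0.23 (SE), adjusted p = 0.00430). In 2D cells Lgals3bp fell into the 2 sets of libraries, with 373, 401 and 387 in replicates 1 to 3 and 817, 785 and 790.2 in replicates 4 to 6. Ifi35, a partner of Nmi, was lower at day 7 than at day 13 (log2 fold change -0.44 ± 0.19 (SE), adjusted p = 0.0534), a call that was lost without day 7 replicate 3 or day 13 replicate 5, with adjusted p-values from 0.131 to 0.350. Without day 7 replicate 3 its log2 fold change was -0.24.

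The 13 genes with too few counts for the test were Dhx58, Zbp1, Herc6, Ifit2, Ifit3b, Oas1a, Gbp3, Mx1, Mx2, Rsad2, Cmpk2, Ifi44 and Sp100, and none reached more than 13 counts in a library. Most of them are classical antiviral genes. Mx1 and Mx2 belong to a family of GTPases that block viruses, and GENCODE types Mx2 as a polymorphic pseudogene. Whether the Mx1 and Mx2 alleles of these lines give working proteins was not examined. Rsad2 and Cmpk2, neighbors on chromosome 12, encode viperin and a nucleotide kinase. Summed over the 13, libraries held 27 to 43 counts in 2D cells, 33 to 57 at day 7, 35 to 52 at day 13 in batch 1 and 46 to 59 in Matrigel. In batch 2 they held 15 to 19 in KC and 6 to 20 in KPC organoids. As a sum of levels this was 21.8 ± 3.17 CPM (SD, n = 5) in day 13 collagen organoids of batch 1 and 11.7 ± 1.67 (SD, n = 3) in KC organoids of batch 2.

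Rsad2 and Cmpk2 were at 0 in all 6 libraries of batch 2, where a count of 0 allows up to 3 counts in a library, or 1.58 to 2.09 CPM. Rsad2 held 2, 0, 1, 3 and 2 counts in the day 13 collagen libraries of batch 1. Ifi44 was at 0 in the 3 KC libraries of batch 2, against 6, 4, 4, 5 and 7 in batch 1. Computed against 3 counts over the group, Ifi44 was 3.68-fold lower in batch 2 and Cmpk2 2.69-fold. The lower ends of the 95% counting intervals of these ratios, which count the error of the batch 1 counts as well, were 2.79 for Ifi44 and 1.98 for Cmpk2. Mx1 held 5, 13 and 6 counts in KC and 1, 1 and 0 in KPC organoids of batch 2, a ratio of 13.85 from KC to KPC (95% counting interval 3.44 to 120.9), without a test. In batch 1 Mx1 held 1, 0 and 0 counts at day 7 and 1, 2, 2, 10 and 5 at day 13.

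The Mx1 counts of KC organoids thus overlapped between the batches. Oas1a shares 50.2% of the 63-base windows in its last 500 bases with another gene, mostly Oas1g, and its counts are uncertain for that reason.

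The other genes of the pathway come from lists compiled by role, with earlier results of these data known. Of 20 interferon ligands 2, Ifne and Ifnk, had a row, with 4 and 1 counts in all 23 libraries together, and the other 18 were not analysed here. All 6 receptor chains were tested. At day 7 against day 13, where 28.1% of all tested genes were called higher and 27.1% lower, none was higher and 3 were lower, Ifngr1 (-0.99), Ifngr2 (-1.35) and Il10rb (-0.96), as log2 fold changes. Ifngr2, a chain of the receptor for type II interferon, was also lower in KPC than in KC organoids (log2 fold change -0.52 ± 0.11 (SE), adjusted p = 0.00150). Of the 5 kinases and STATs, 4 were lower at day 7 and none higher, against the same shares, with log2 fold changes of -0.82 for Tyk2 and -0.69 for Stat3.

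Of 8 tested genes in the list of sensors and adaptors, none was higher and 6 were lower at day 7, where 28.1% and 27.1% of all tested genes were called. Among them, Sting1, the adaptor for DNA in the cytosol, was at 4.86 CPM at day 7 and 13.4 at day 13 (log2 fold change -1.42 ± 0.25 (SE), adjusted p = 4.79e-05), and at 26.2 in 2D cells. Aim2, a sensor of DNA, was at 65.6 CPM in KC and 11.8 in KPC organoids of batch 2 (log2 fold change -2.46 ± 0.22 (SE), adjusted p = 1.38e-08), and at 29.5 in batch 1. Of 6 tested negative regulators, Socs3 was lower at day 7 (-0.75) and Samhd1 higher (0.52), as log2 fold changes.

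Of 34 tested genes that interferon also induces but that are not among the 41, 4 were higher and 18 lower at day 7, where 28.1% and 27.1% of all tested genes were called, with a median log2 fold change of -0.66. Uba7, which activates Isg15 for its transfer, was at 1.66 CPM at day 7 and 16.99 at day 13 (log2 fold change -3.37 ± 0.40 (SE), adjusted p = 1.32e-07). Ube2l6, which carries Isg15 in the next step, was at 1.65 and 6.80 (log2 fold change -1.95 ± 0.39 (SE), adjusted p = 1.89e-04) and at 2.25 in KC organoids of batch 2 (log2 fold change -1.57 ± 0.42 (SE), adjusted p = 0.00574). In KPC against KC organoids 1 of the 34 was higher, Mov10, and 4 were lower, among them Phf11d (-2.63), Isg20 (-1.01) and Ifitm2 (-0.94), as log2 fold changes, where 9.58% and 10.4% of all tested genes were called. Between batches 2 were higher and 9 lower in batch 2, where 19.3% and 18.1% were called. Between Matrigel and collagen 2 were higher and 3 lower in Matrigel, where 6.62% and 6.29% were called. Slfn2 was higher in Matrigel, at a mean of 74.4 CPM against 7.27 in collagen (log2 fold change 3.34 ± 0.39 (SE), adjusted p = 1.00e-06). Of 4 tested genes of antigen presentation, all 4 (B2m, Tap2, Tapbp and Psmb10) were lower at day 7 and all 4 higher in 2D cells than at day 7, where 27.1% of all tested genes were called lower and 26.4% higher. Tap2, a part of the peptide pump, held 9 to 14 counts in KC libraries of batch 2 and 0 to 3 in KPC libraries (adjusted p = 4.22e-05).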

How the data were processed

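Poly(A) RNA of 23 organoid and 2D libraries was sequenced in bulk from its 3' end with UMIs. Per the labels and the study's methods, the authors deposited raw UMI counts per gene, made with the Drop-seq pipeline on GRCm38 with GENCODE M25, and no normalization was applied to these counts. Columns were assigned to samples by their labels, and groups come from the labels.

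The counts of all 23 libraries were fitted in a single model with a term for each of the 6 groups (R 4.3.3, edgeR 4.0.16, quasi-likelihood F-test, TMM scaling, filterByExpr), and p-values were adjusted by Benjamini and Hochberg over 11144 tested genes of 27207. A gene was called at an adjusted p under 0.1, in 7 comparisons. CPM is scaled by TMM, log2 CPM uses a prior count of 2, and a count of 0 allows up to 3 counts, or 1.16 to 3.22 CPM by library. Intervals and floors cover counting error only. DESeq2 1.42.0, other scalings, no filter, a replicate block and leaving out each library were the alternatives. Counts were also simulated for day 7 against day 13 with 10875 genes. On these the fit called 81.6% of genes changed by 1 and 98% of genes changed by 2 on the log2 scale. The simulation changed far fewer genes than were called in the data, and took each gene's spread from a trend over genes. Its recovery covers genes of all levels, so that it does not give the power for the members. Gene positions come from GENCODE M21 on GRCm38 and promoters from RefSeq on GRCm38.p6.

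The members and lists were chosen with earlier results of these data known. Every member is named, and values in each library are given for up to 4 genes per direction and comparison with the largest log2 fold change among genes called with at least 5 CPM in the higher group. The same values of further genes were chosen after their values had been seen. Some alleles and genes are not reported here.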

Additional observations from a re-analysis of the deposited data

Results flagged for a closer look

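Of 58 sets of values, those of 28 genes and the mean z score in the groups of 5 and 6 libraries, 2 had a library far from the others, where chance gives about 1 in 20, or 2.9. Ifi35 was at 61.2 CPM in 2D replicate 1, while the other 2D libraries ran from 34.2 to 43.4. Samd9l was at 50.1 CPM in replicate 1 of the day 13 collagen organoids of batch 1, while the other 4 ran from 75.3 to 82.9.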

How the results depend on the processing

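No called gene changed direction in 1512 values under the alternatives, and 197 of these values were no longer called. Of the counts of called genes 11 of 118 moved by over 1.5 times, and of the medians 18 of 111 moved by more than the spread used for them. Between KPC and KC organoids 3 genes were called at a threshold of 0.05, and 11 at the threshold of 0.1 against all 8 KC libraries. Matrigel against collagen gave 3 without a filter. Leaving out 1 library gave 3 to 5 genes for KPC and 2 to 5 for Matrigel against collagen. For 2D it gave 12 to 18 against day 7, 12 to 18 against day 13 collagen and 8 to 15 against Matrigel. In 2D against day 7 Ifit1 was no longer called in 6 of 9 such fits and Ifit3 and Xaf1 in 5 each, while every other call was lost in at most 2. The medians were 0.68 to 0.92 for 2D against day 7, 0.045 to 0.21 for Matrigel against collagen and -0.77 to -0.49 for day 7 against day 13. With library size alone the medians were -0.089 between batches, 0.58 for 2D against day 7, -0.25 against day 13 collagen and -0.60 against Matrigel, while the median of all genes shifted by -0.14, -0.16, -0.20 and -0.26, and by 0.12 for KPC. The score was then 0.704 in Matrigel and 0.0166 in KC organoids of batch 2. Without a filter the median was -0.25 between batches, and the score was -0.651 at day 7 and -0.0996 in KC organoids of batch 2. With the groups compared fitted alone, day 7 against day 13 had a median of -0.79. With all 8 KC libraries, which mixes batch into each comparison, the medians were 0.21 for Matrigel, -0.82 for day 7 and -0.61 for KPC. Without 2D replicates 4 to 6, which was chosen after the data had been seen, the medians were 1.20 against day 7 and 0.14 against day 13 collagen. The cause was not tested.

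Samples with the same replicate number did not deviate together (correlations from -0.12 to 0.19), so that the numbers do not pair them. With the replicate number as a block, Matrigel against collagen gave 3 called genes and 2D against day 7 a median of 0.93, and no other count of calls moved by over 1.5 times.

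Depth of 1221451 to 2471058 counts left 13 of the 41 genes untested, and 3 libraries in most groups limit what small differences can pass.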
